A study of Mus musculus with 6 samples.

Results

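The wild-type mouse cerebellum was described from 3 RNA-seq libraries, replicates 1, 2 and 3, of male C57BL/6 mice at 6 weeks after birth. The members are the genes whose FPKM (fragments per kilobase of length, scaled for library size) averaged 1 or more over these libraries, 6270 of the 24537 genes listed, or 25.6%. They held 95.2% of the summed FPKM, and 5773 of the other genes were listed at 0 in all 3 libraries. Of all 24537 genes, 11856 were under 0.1 FPKM in every library, those listed at 0 included. The study's 6 libraries also include cerebellum of mice heterozygous for reelin (Reln), whose libraries enter no value here. The labels name no transgene or treatment for the wild-type group. They do not say whether each library came from its own animal, so the spread below may in part be technical.

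The cerebellum is built from a very large number of small granule cells, which excite Purkinje cells through parallel fibres, and from Purkinje cells, which are the output of its cortex and inhibit the deep nuclei. Molecular layer interneurons and Golgi cells are inhibitory, unipolar brush cells amplify mossy fibre input, and Bergmann glia are radial astrocytes that ensheathe Purkinje cell synapses. The choroid plexus of the fourth ventricle, which secretes cerebrospinal fluid, and the meninges lie against the tissue. In a bulk library, fewer cells of a type and less RNA per cell cannot be told apart.

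At the limit, Ncoa5, Nans and Coro1c lay just inside, with means of 1.00003, 1.00011 and 1.00045 FPKM, and Snx14, Mast3 and Sec61b just outside, with means of 0.999975, 0.999918 and 0.999752 FPKM. By the GENCODE annotation 6089 members (97.1%) were protein-coding genes, which held 77.9% of the summed FPKM. The 3 ribozyme genes alone held 12.4%.

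The 2 highest genes were small noncoding RNAs that work in RNA processing. Rpph1, the RNA of ribonuclease P, which trims the 5′ end of transfer RNAs, stood at 3642, 6942 and 2992 FPKM in replicates 1, 2 and 3. Rmrp, the RNA of the related ribonuclease MRP, which cuts the ribosomal RNA precursor, stood at 2076, 3424 and 2038 FPKM. Replicate 2 was the highest library for both. Further small RNAs ranked lower among all genes. Snord17, a C/D box small nucleolar RNA, stood at 119.98, 228 and 124 FPKM, and Rnu12, the U12 RNA of the minor spliceosome, at 49.5, 168 and 47.8 FPKM. Both were again highest in replicate 2.

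The sequences of these 4 RNAs are shown because their length bears directly on a value per kilobase. They are 319, 271, 238 and 151 bases long. As means of the 3 libraries' shares, Rpph1 held 7.94% of the summed FPKM but 0.215% of the approximate reads, and Rmrp 4.41% and 0.1004%. Of Rpph1 the first 300 bases are shown. The sequences follow GENCODE M21 on GRCm38 (mm10), 5′ to 3′. Rpph1 lies at chr14:50807449-50807767 and Rmrp at chr4:43492788-43493058, both on the minus strand. Snord17 lies at chr2:144265979-144266216 on the minus strand, inside the gene Snx5 on the same strand, and Rnu12 at chr15:83149644-83149794 on the plus strand. In Rpph1 and Rmrp capitals mark a run of 9 bases that both share. No shared run is longer, but the unmarked run gcagtgcga is shared too and as long. In Snord17 capitals mark the first TGATGA, the C box motif, and the last CTGA, the D box motif. In Rnu12 they mark GTAAGGA, the stretch that pairs with the branch site of minor introns.
Rpph1: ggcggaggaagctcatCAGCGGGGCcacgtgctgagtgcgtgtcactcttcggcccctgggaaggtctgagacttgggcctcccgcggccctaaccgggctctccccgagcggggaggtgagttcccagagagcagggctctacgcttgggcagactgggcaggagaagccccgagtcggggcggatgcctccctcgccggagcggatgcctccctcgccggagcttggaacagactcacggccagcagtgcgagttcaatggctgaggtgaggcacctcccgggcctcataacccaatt
Rmrp: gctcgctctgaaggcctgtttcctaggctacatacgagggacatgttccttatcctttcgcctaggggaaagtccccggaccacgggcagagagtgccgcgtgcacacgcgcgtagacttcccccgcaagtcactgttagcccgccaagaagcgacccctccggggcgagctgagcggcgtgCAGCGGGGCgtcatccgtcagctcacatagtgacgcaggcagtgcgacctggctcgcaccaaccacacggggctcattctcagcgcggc
Snord17: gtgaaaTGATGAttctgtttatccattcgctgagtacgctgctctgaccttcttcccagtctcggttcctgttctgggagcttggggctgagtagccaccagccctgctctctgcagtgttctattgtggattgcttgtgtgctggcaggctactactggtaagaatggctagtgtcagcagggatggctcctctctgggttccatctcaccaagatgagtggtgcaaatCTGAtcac
Rnu12: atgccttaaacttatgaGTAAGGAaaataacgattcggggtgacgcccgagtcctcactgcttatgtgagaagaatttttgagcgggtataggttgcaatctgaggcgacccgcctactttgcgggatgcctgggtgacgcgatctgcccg

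The length behind the FPKM had to be settled before levels of different genes could be compared. Where whole reads were counted, a low FPKM multiplied by the length it was divided by falls on whole multiples of a fixed step. The values used stood for 0.5 to 6.5 reads, in genes whose genomic span was at least 3.0 times their merged exon length. With the genomic span, introns included, 87.6%, 88.7% and 87.4% of these values in replicates 1, 2 and 3 came within 0.1 of a whole read, where evenly spread values give 20%. The numbers of values were 1560, 1642 and 1602. With the merged exon length the shares were 20.4%, 19.2% and 21.9%, and with the longest transcript 20.7%, 20.7% and 19.8%. The labels describe fragments per kilobase of exon, but the values behave as fragments per kilobase of genomic span, so a gene with long introns is listed too low beside a gene without introns. A comparison of 1 gene between the 3 libraries is not affected.

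**Figure D1:**
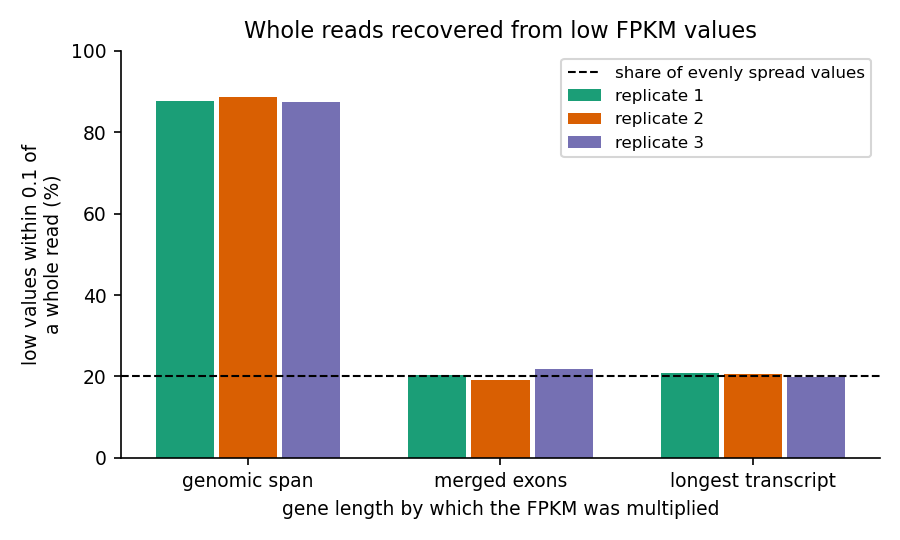
Share of low FPKM values (vertical axis, %) within 0.1 of a whole read after multiplication by each of 3 gene lengths (horizontal axis), in each wild-type library (coloured bars); the dashed line marks 20%, the share for evenly spread values. The genomic span gave 87.4% to 88.7%, and the other lengths stayed between 19.2% and 21.9%.

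Levels between genes are therefore also given as an exon-scaled level, the FPKM multiplied by the span and divided by the merged exon length. Whether reads within introns were counted is not given in the sources used here. In 53 pairs, a gene with at least 100 reads lay inside an intron of another gene on the same strand. In 34 of them the host had fewer reads than the gene within it. Of these pairs 19 share the host Gm37013, which spans protocadherin genes. By host, 15 of 27 had fewer reads than a gene within. The bounds of a host were those of its whole gene, but its reads were taken over the span of its curated transcripts. That span can be shorter and leave out the gene within. The pairs therefore cannot decide whether reads within introns were credited to the host. Where intronic reads did count, the exon-scaled level is too high for long genes. The median span was 4.75 times the exon length in members, and 12.98 times in 5613 further genes that were below 1 FPKM but reached an exon-scaled level of 1. Reln and Dab1 were among the latter.

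The whole-read step gave depths of 28260000, 26800000 and 28520000 reads for replicates 1, 2 and 3, of which 78.1%, 60.7% and 72.5% fell to listed genes. The median member had a counting error of 2.84% of its value. The summed FPKM was 62835, 55121 and 55070.4, and 6606, 5794 and 6349 genes reached 1 FPKM. As deposited, 5169 members (82.4%) were highest in replicate 1 and 5397 (86.1%) lowest in replicate 2, so that order is the common one. After division by median-of-ratios size factors of 1.13, 0.868 and 1.03, called scaling below, replicates 1, 2 and 3 were highest for 2121, 2623 and 1526 members and lowest for 1990, 1972 and 2308.

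Expression was concentrated in few genes, most so in replicate 2. The number of genes that together held 50% of the summed FPKM was 320, 206 and 343 in replicates 1, 2 and 3 (mean 289.7 ± 73.4, SD, n = 3). The 100 highest genes held 34.2%, 41.4% and 33.3% (36.3% ± 4.44, SD, n = 3). On the exon-scaled level the first number was 880, 848 and 944 genes, and the 100 highest held 19.7%, 21.03% and 18.8%. The lists of the 100 highest genes on the 2 scales had 53 genes in common.

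Outside the small RNAs, the highest members by FPKM were genes of protein folding, translation, energy supply and the cytoskeleton. Hspa8, the constitutive heat shock chaperone that also uncoats clathrin vesicles, stood at 724, 466 and 583 FPKM. Malat1, a nuclear long noncoding RNA, stood at 426, 677 and 646 FPKM, and was lowest in replicate 1, where Hspa8 was highest. Eef1a1, which brings aminoacyl transfer RNA to the ribosome, had 546, 412 and 449.8 FPKM, and Ckb, the brain creatine kinase, 501, 329 and 397 FPKM. For Eef1a1 and Ckb, as for Hspa8, replicate 1 was highest and replicate 2 lowest.

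Next by mean FPKM came Gapdh (338), Aldoc (336), Actb (332), Apoe (296), Tuba1a (261) and Ubb (227). Gapdh and Aldoc encode glycolytic enzymes, Aldoc being the zebrin II antigen of Purkinje cell stripes and also an astrocyte gene. Ptgds, the prostaglandin D synthase of leptomeninges and oligodendrocytes, stood at 294, 144 and 208 FPKM. Hist1h4d, a replication-dependent histone H4 gene, stood at 238, 208 and 186 FPKM. Other H4 genes are nearly identical to it, so its value is uncertain where reads could be split.

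The rest of the 25 highest included Hsp90aa1, Tuba1b, Aldoa, Cbln3, Hsp90ab1, Nap1l5, Gm1821, Atp5b, Eef2, BC002163, Tspyl4 and Calm3, with means from 209 down to 147 FPKM. Cbln3, a cerebellin of granule cells, had the lowest CV (SD over mean) of the 25 as deposited, 6.03%, with 178, 166 and 188 FPKM, but not after scaling, where it was 9.71%. Calm3 encodes calmodulin, the main calcium sensor protein of neurons, and Nap1l5 is an imprinted gene.

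**Figure D2:**
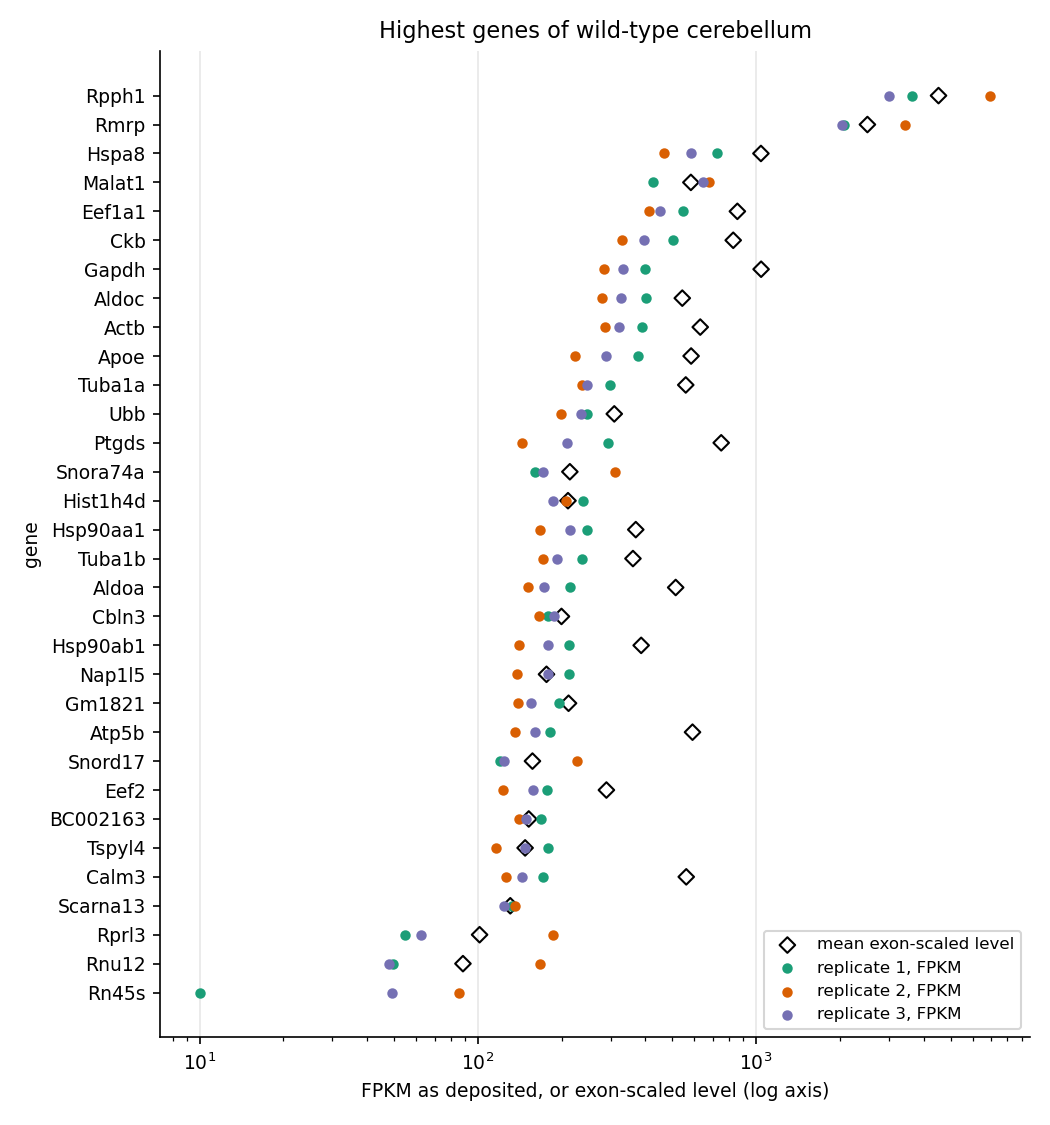
FPKM of 24 of the 25 highest genes outside the small and structural RNAs and of the 8 highest within them in each wild-type library (coloured points), with the mean exon-scaled level (open diamonds), on a log axis. Replicate 2 is the highest library for Rpph1 (6942 FPKM) and below replicate 1 for Hspa8 (466 against 724 FPKM), and genes with introns move right on the exon-scaled level; Rn45s had no matched length and has no diamond.

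The exon-scaled level changed the order of the leading genes. Snap25, a SNARE protein of vesicle fusion, went from a mean of 34.3 FPKM to an exon-scaled level of 1060.02 ± 152 (SD, n = 3, as for every exon-scaled level below), beside Gapdh at 1043 ± 178 and Hspa8 at 1041 ± 227. The SDs include the spread common to most genes of a library, so they do not settle the order of these 3. Calm2, also a calmodulin gene, went from 91.6 FPKM to 1028 ± 119, and Sparcl1, a matrix protein of astrocytes, from 76.4 FPKM to 959 ± 242. Pvalb, a calcium buffer of Purkinje cells and interneurons, reached 592 ± 62.97. Pcp4, a calmodulin-binding protein of Purkinje cells whose span was 90.8 times its exon length, went from 6.46 FPKM to 587 ± 81.3. Ttr, a choroid plexus gene, had a mean of 1075 with an SD nearly as large, 1039.

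Among families, small and structural RNAs held the largest share of the FPKM and very few reads. Their share of the summed FPKM was 10.2%, 21.6% and 10.6% in replicates 1, 2 and 3 (14.1% ± 6.47, SD, n = 3), and 10.4% over replicates 1 and 3. Members were 32 of 1315 genes of the list. Their share of approximate reads was 0.2604%, 0.6002% and 0.254%, so that replicate 2 was highest on both measures. Scarna13, a guide RNA of Cajal bodies, stood at 133, 136 and 124 FPKM, and Snora74a, an H/ACA box RNA, at 161, 311 and 171 FPKM. Rn45s, the ribosomal RNA precursor, stood at 10.03, 85.3 and 49.2 FPKM, lowest in replicate 1. Ribosomal sequences were filtered before alignment, per the labels, so Rn45s counts what remained.

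Protein synthesis followed. Cytosolic ribosomal protein genes, 82 of 87 being members, held 5.699%, 5.26% and 5.58% of the summed FPKM (5.51% ± 0.229, SD, n = 3, as for every share below) and 4.503% ± 0.149 on the exon-scaled level. Rpl41 (121 FPKM) and Rplp1 (103 FPKM), both of the large subunit, were highest. These genes have many processed copies in the genome, so their values are uncertain where reads could be split. Translation factors held 2.0004% ± 0.1704, led by Eef1a1, Eef2 (153 FPKM) and Eif4a2 (89.2 FPKM), an RNA helicase of initiation.

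Energy metabolism was the next group of families. Nuclear genes of oxidative phosphorylation, 79 of 87 being members, held 2.96% ± 0.152 of the FPKM and 4.22% ± 0.119 exon-scaled. The ATP synthase subunits Atp5b (159 FPKM) and Atp5a1 (88.6 FPKM) and the cytochrome c oxidase subunit Cox8a (119.9 FPKM) were highest. Glycolysis genes, 16 of 17 being members, held 2.1002% ± 0.213 by FPKM and 1.69% ± 0.0774 exon-scaled. Pkm, which makes pyruvate, stood at 52.3 FPKM and an exon-scaled level of 463 ± 80.2. Ckb and Ckmt1, the creatine kinases, held 0.764% ± 0.108 of the FPKM.

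Replication-dependent histone genes, 42 of 69 being members, held 2.08% ± 0.171 of the FPKM but 0.517% ± 0.0742 on the exon-scaled level. Such genes typically have no introns, and their messenger RNAs end in a stem-loop in place of a poly(A) tail, which a total RNA library keeps. The mean summed exon-scaled level of the list, 1223, was slightly above its mean summed FPKM, 1199. Some listed genes therefore had a span longer than their exons. By FPKM, Hist3h2a (138 FPKM) and Hist1h4h (131 FPKM) came after Hist1h4d. Heat shock chaperones held 1.98% ± 0.305 by FPKM, tubulins 1.501% ± 0.128 and actin with its regulators 1.37% ± 0.133. Exon-scaled, these shares were 0.972% ± 0.0912, 0.769% ± 0.0288 and 0.769% ± 0.0298. Tuba1a, Tuba1b and Tuba4a led the tubulins, and Actb, Cfl1, which severs actin filaments, and Actg1 the actin list.

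Nuclear long noncoding RNAs held 0.838%, 1.39% and 1.35% of the FPKM, with replicate 1 lowest. After Malat1 came Peg13 (60.9 FPKM) and Meg3 (10.5 FPKM), both from imprinted loci. Meg3 stood at 7.85, 13.6 and 10.1 FPKM, and Kcnq1ot1, which silences neighbouring imprinted genes, at 0.598, 1.85 and 1.23 FPKM. In both, replicate 2 was highest and replicate 1 lowest. Peg13 had the other order, at 70.4, 48.7 and 63.6 FPKM.

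**Figure D3:**
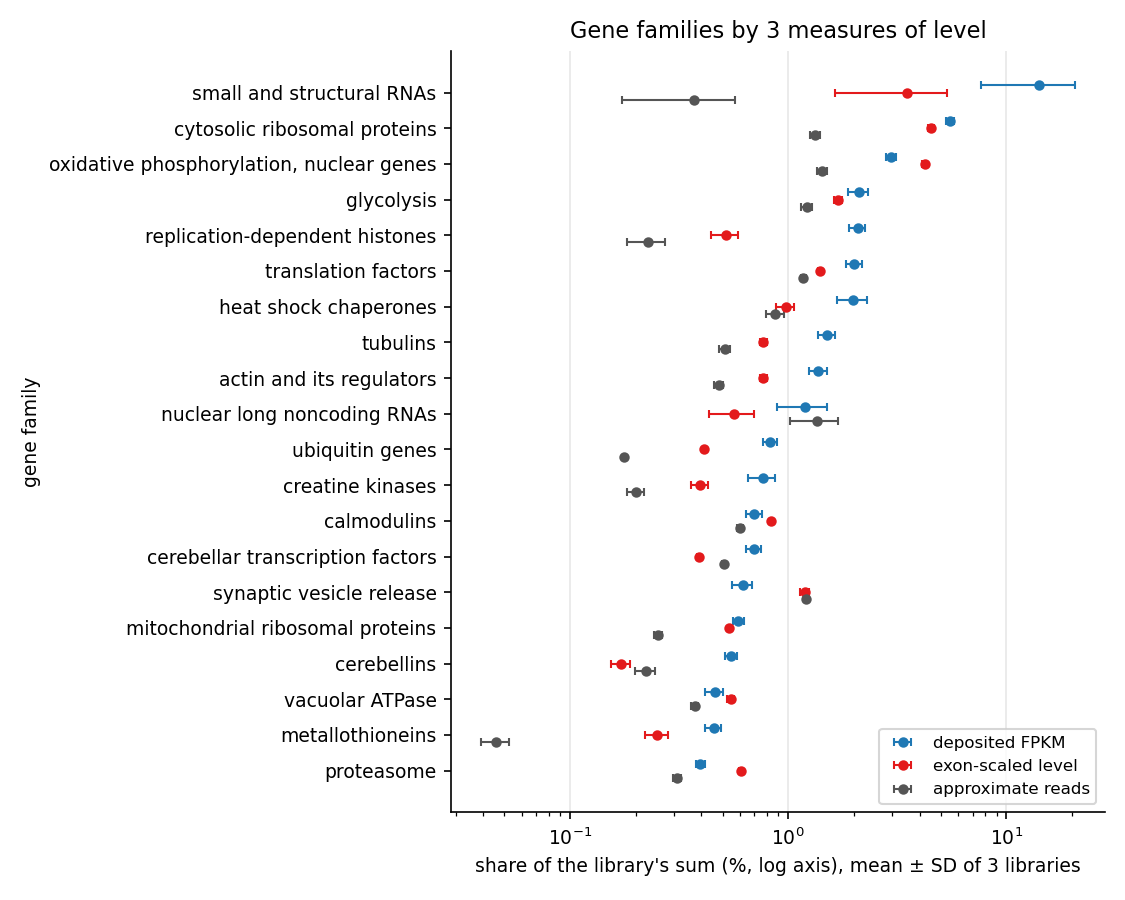
Share of each library's sum held by the 20 gene families with the largest share of FPKM (log axis, %), by deposited FPKM, exon-scaled level and approximate reads; points are means and bars SDs of 3 libraries. Small and structural RNAs go from 14.1% of the FPKM to 0.372% of the reads, and synaptic vesicle release genes from 0.617% to 1.204%.

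Synaptic and calcium families held more on the exon-scaled level. Synaptic vesicle release genes, 19 of 25 being members, held 0.617% ± 0.06596 of the FPKM and 1.19% ± 0.0543 exon-scaled. Rab3a (86.7 FPKM), a GTPase of vesicles, and Syp (50.8 FPKM), synaptophysin, led by FPKM, and Snap25 on the exon-scaled level. Calcium buffers and sensors went from 0.299% ± 0.0321 to 1.03% ± 0.0345, led by S100b (48.9 FPKM), a calcium-binding protein of astrocytes, Pvalb and Calb1. Among sodium and calcium channels, the beta subunit gene Scn2b stood at 36.97 FPKM.

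Of the ionotropic glutamate receptor genes, 5 of 18 were members, a share close to the 25.6% of all genes. Grin2c, the NMDA receptor subunit of mature granule cells, was the highest by FPKM, at 9.86, 10.02 and 10.2. On the exon-scaled level the AMPA receptor subunits Gria4 (86.1 ± 12.9) and Gria1 (84.8 ± 19.3), both found in Bergmann glia, were above Grin1 (42.9 ± 3.85), the obligatory NMDA receptor subunit, and Grin2c (36.98 ± 0.543). As deposited, Grin1 (6.68 FPKM) was above Gria1 (1.54 FPKM) and Gria4 (1.40 FPKM). Which order holds depends on whether intronic reads counted. Of 8 metabotropic receptors, Grm4, the receptor of parallel fibre terminals, was the one member, at 5.07 FPKM and an exon-scaled level of 92.3 ± 3.28.

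GABA-A receptor subunits were led on both scales by Gabra6, the subunit of granule cells, with 68.3, 53.7 and 58 FPKM and an exon-scaled level of 355 ± 44.6. Gabrb2 was at 134 ± 16.6 and Gabrd, the extrasynaptic partner of Gabra6, at 70.1 ± 5.52. Of the 19 subunit genes, 14 were below 1 FPKM, and 10 were under 0.1 FPKM in every library. Of all 24537 genes, 6270 were at 1 FPKM or more and 11856 under 0.1 FPKM in every library. The subunit genes were thus below these limits about as often as all genes. The voltage-gated potassium channels Kcna1 (39.03 FPKM) and Kcna2 (25.9 FPKM) led their family. In it 24 of 98 genes were members, a share close to the 25.6% of all genes.

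Transcription factors of the cerebellum held 0.694% ± 0.0542 of the FPKM, with 21 of 42 genes as members. Neurod1, which drives granule cell differentiation, stood at 104, 81.7 and 92.7 FPKM, and Zic1, a zinc finger factor of the granule cell lineage, at 103, 73.5 and 83.6 FPKM. Replicate 1 was highest and replicate 2 lowest for both. Zic2, Neurod2, Bhlhe22 and the inhibitors of bHLH factors Id2 and Id4 came next, from 56.6 FPKM for Id2 to 17.5 for Bhlhe22, before En2 (8.83 FPKM), the engrailed gene of midbrain and hindbrain. None of the 39 Hox genes, which pattern the body behind the cerebellum, was a member, and 38 were under 0.1 FPKM in every library.

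The label of cerebellum was checked against markers: granule and Purkinje cell lists were high, and the list for cerebral cortex and hippocampus was near 0. All 20 granule cell genes had an exon-scaled level of at least 1, and 16 were members. Cbln3 and Cbln1 (140.5, 139.7 and 130.4 FPKM), which links parallel fibres to Purkinje cell spines, were highest by FPKM, before Neurod1 and Zic1. The summed exon-scaled level of the list was 2153, 1856 and 2012 in replicates 1, 2 and 3. Of 7 genes of dividing granule cell precursors none was a member. Atoh1, which specifies them, was listed at 0, and Mki67, Top2a, Ccnb1 and Cdk1 were under 0.1 FPKM in every library.

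Purkinje cell genes had 14 of 22 genes as members and a larger summed exon-scaled level than the 20 granule cell genes, at 3220.2, 2369 and 2955. As deposited the order was reversed, with a mean summed FPKM of 336 against 700 for granule cell genes. The exon-scaled level is too high for long genes where intronic reads counted, so the order of the 2 lists is not settled. Pcp2, a modulator of G proteins typical of Purkinje cells, stood at 175, 122 and 143 FPKM. Gng13, a G protein gamma subunit (73.9 FPKM), Calb1, a calcium buffer (29.3 FPKM), and Homer3, a postsynaptic scaffold (20.1 FPKM), came next by FPKM. Itpr1, the calcium release channel of the endoplasmic reticulum, stood at 11.7 FPKM and an exon-scaled level of 402 ± 80.6. Rora, a nuclear receptor that Purkinje cells need to mature, was below the limit at 0.552 FPKM, with an exon-scaled level of 36.1 ± 6.71. Foxp2 was under 0.1 FPKM in every library and at an exon-scaled level of 1.64 ± 0.427.

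Inhibitory interneurons were marked by Pvalb (40.3 FPKM), Gad1 (9.32 FPKM), which makes GABA, and Slc32a1 (9.29 FPKM), which loads it into vesicles. Purkinje cells also express Pvalb, Gad1 and Slc32a1. Nxph1 and Sorcs3 were under 0.1 FPKM in every library and at exon-scaled levels of 3.804 ± 0.663 and 3.57 ± 0.857. In the Golgi cell list Lgi2 (2.74 FPKM) was a member, and Sst (0.926 FPKM), Grm2 (0.7695 FPKM) and Slc6a5 (0.0844 FPKM), the neuronal glycine transporter, were not.

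Unipolar brush cells were represented by Calb2 (10.4 FPKM), also a granule cell gene, and Eomes (5.096 FPKM), with Lmx1a under 0.1 FPKM in every library. Among markers of the deep nuclei, Spp1 (1.96 FPKM) was a member, Slc17a6, a vesicular glutamate transporter, was at 0.343 FPKM, and Lhx9 and Tbr1 were under 0.1 FPKM in every library.

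Astrocyte genes had the largest summed exon-scaled level of the cell type lists, 4620.1, 2982 and 3699, and 19 of 20 were members. Apoe, a carrier of lipids, Mt1 (143 FPKM), a metallothionein, Glul (91.8 FPKM), which makes glutamine from glutamate, and Sparcl1 were the highest by FPKM. Not all of these are limited to astrocytes. All 5 genes for Bergmann glia were members, led by Fabp7 (23.02 FPKM), a fatty acid binding protein, and Slc1a3 (19.6 FPKM), the glutamate transporter GLAST, which reached an exon-scaled level of 360.3 ± 56.98.

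Of the oligodendrocyte genes 14 of 16 were members. Cnp, a myelin enzyme, stood at 48.4, 31.7 and 37.9 FPKM. Mbp, a main protein of myelin, stood at 11.2, 6.82 and 8.57 FPKM, with an exon-scaled level of 146 ± 36.3 beside 114 ± 24.5 for Cnp. Every member was highest in replicate 1, also after scaling. Of all 6270 members, 82.4% were highest there as deposited and 2121 after scaling. Precursor genes were lower, led by Olig1 (12.7 FPKM), Gpr17 (4.95 FPKM) and Olig2 (2.99 FPKM), with 4 of 7 genes as members.

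Immune and vascular cells gave low values. Of the microglia genes 5 of 13 were members, the complement genes C1qa (3.99 FPKM) and C1qc (2.16 FPKM) being highest. Of the endothelial genes 4 of 12 were members, led by Cldn5 (12.1 FPKM), a tight junction protein, and of the mural cell genes 2 of 8, Vtn (21.5 FPKM) and Rgs5 (3.03 FPKM). Macrophages of the brain's borders had no member among 5 genes, and Mrc1, F13a1, Lyve1 and Cd163 were under 0.1 FPKM in every library. Blood leukocytes had none among 5, with Ly6g and Cd3e under 0.1 FPKM.

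**Figure D4:**
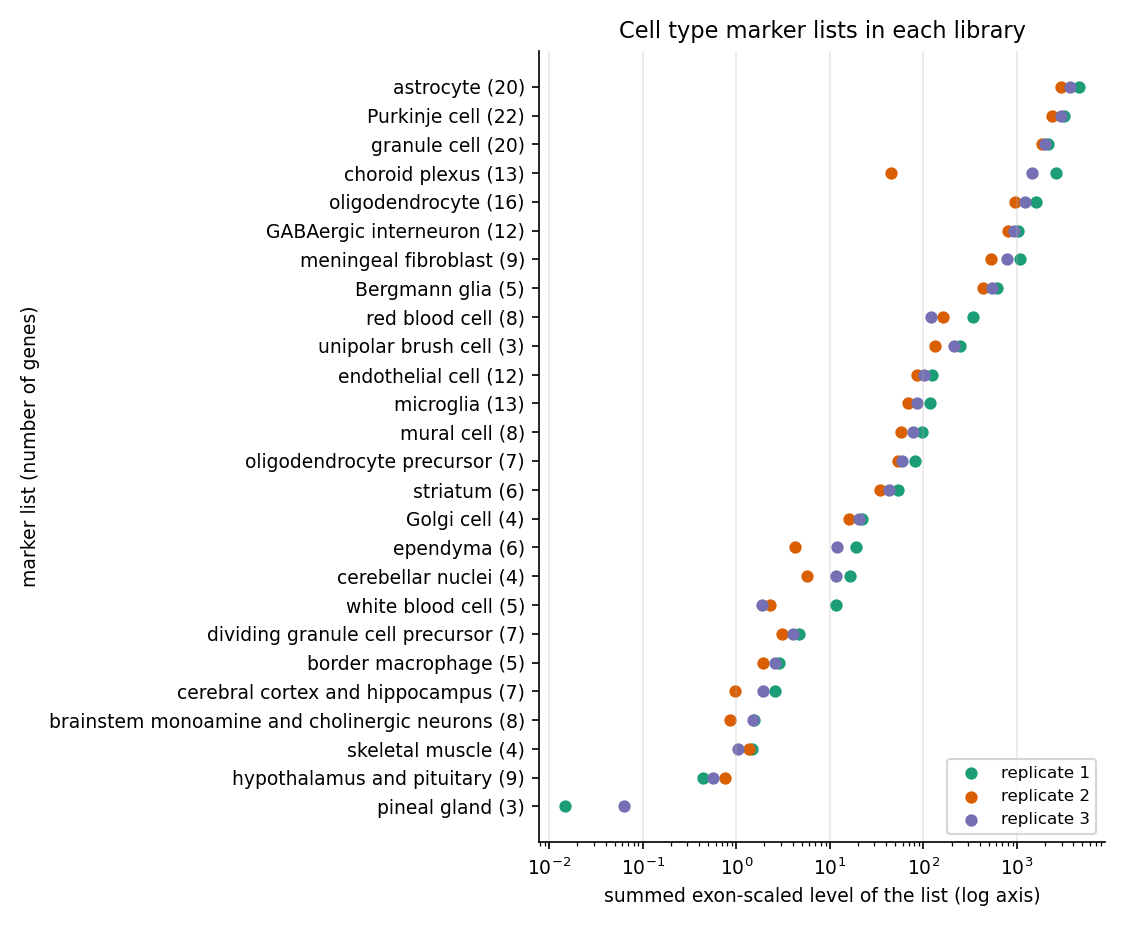
Summed exon-scaled level of each cell type marker list (log axis) in each wild-type library. The choroid plexus list is at 2638, 45.03 and 1466 in replicates 1, 2 and 3, and the pineal, hypothalamus, muscle, brainstem and cortex lists lie at the bottom; the pineal list was at 0 in replicate 2 and has no point there, and the red blood cell sum leaves out Hbb-b1 and Hbb-b2, which had no matched length.

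Tissues outside the cerebellum were read from lists of their own. Cerebral cortex and hippocampus had no member among 7 genes. Neurod6 was highest at 0.889 FPKM, Nr2e1 was listed at 0, and Emx1 and Fezf2 were under 0.1 FPKM in every library. In the striatum list Ppp1r1b, which Purkinje cells also express, was at 9.43 FPKM and made most of the summed exon-scaled level of 53.4, 34.3 and 43.1, with the dopamine and adenosine receptor genes Drd2 and Adora2a, and Rgs9, under 0.1 FPKM. The lists for hypothalamus and pituitary, for monoamine and cholinergic neurons of the brainstem, for the pineal gland and for skeletal muscle had no members. Their highest genes were Acta1 (0.432 FPKM), a muscle actin, Th (0.219 FPKM), which makes dopamine's precursor, and Pomc (0.103 FPKM), a peptide hormone precursor. Hcrt, Gh, Prl, Six6, Phox2a, Slc18a3, Chat and Asmt were listed at 0, and Oxt, Avp, Pmch, Agrp, Tph2, Dbh, Slc6a4, Aanat, Tph1, Ckm, Mylpf and Myh4 were under 0.1 FPKM in every library.

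Of the lists with members, choroid plexus had the largest median CV among the libraries. Ttr, which carries thyroxine in cerebrospinal fluid, stood at 273, 0.566 and 149.7 FPKM, and Enpp2, which makes lysophosphatidic acid, at 18.9, 1.504 and 10.98 FPKM. Sostdc1, a secreted inhibitor of BMP and Wnt signals, stood at 5.13, 0.0174 and 3.04 FPKM. The potassium channel genes Kcnj13, at 3.07, 0.172 and 1.69 FPKM, and Kcne2, at 3.15, 0.0194 and 1.73 FPKM, had the same order, as did the folate receptor gene Folr1, not a member, at 1.53, 0 and 0.895 FPKM. Replicate 1 was highest and replicate 2 lowest in all 6 members of the list as deposited, the order of most genes (82.4% and 86.1%), and in all 6 after scaling, where 2121 and 1972 of the 6270 members had those places. Membership rests on the mean of the 3 libraries, which a high replicate 1 raises, in this and other lists. Otx2 was a member at a mean of 1.00239 FPKM. Such counts are therefore partly set by the choice of members. The share of the 13 genes in the summed FPKM was 0.493%, 0.00523% and 0.311%, a mean of 0.2697% that became 0.158% without replicate 1. The mean of Ttr was 141 FPKM, 75.1 without replicate 1 and 211 without replicate 2.

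Other genes of the surface and the ventricle had that order too, as deposited and after scaling. Foxj1, a factor for motile cilia in the ependyma, stood at 2.801, 0.8002 and 1.56 FPKM and Igf2, a growth factor of meninges and choroid plexus, at 6.99, 1.95 and 4.87 FPKM. All 4 members of the meningeal fibroblast list, Ptgds among them, were highest in replicate 1 and lowest in replicate 2 on both scales. Eomes, at 8.11, 2.15 and 5.03 FPKM, and Trf, the transferrin gene of oligodendrocytes and choroid plexus, at 27.6, 9.25 and 20.5 FPKM, followed it as well. The order was not particular to such genes. After scaling, all 4 neurofilament genes were highest in replicate 1 and lowest in replicate 2. Of 14 heat shock chaperones 14 and 12 had those places, of 19 astrocyte members 13 and 13, and of 16 granule cell members 1 and 0. Of all 6270 members 2121 and 1972 did. Whether the dissected pieces differed was not tested.

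All 6 red blood cell members were highest in replicate 1 on both scales, and 4 were lowest in replicate 3. Of all 6270 members, 82.4% were highest in replicate 1 and 10.3% lowest in replicate 3 as deposited. After scaling, 2121 and 2308 had those places. Hbb-b1 stood at 228, 116 and 80.5 FPKM, Hbb-bs at 122, 62.2 and 43.2 FPKM, Hba-a1 at 19.2, 6.92 and 6.39 FPKM and Hba-a2 at 15.1, 5.25 and 4.96 FPKM. The globin genes are near-identical copies, and Hbb-b2 and Hbb-bt, lowest in replicate 2, had the same value in every library (5.01, 2.21 and 3.49 FPKM), so the split between copies is uncertain. Without replicate 1, the means of Hba-a1 and Hba-a2 went from 10.8 and 8.44 to 6.66 and 5.11 FPKM. The neutrophil genes S100a8 (2.08, 0.425 and 0.218 FPKM) and S100a9 (1.09, 0.181 and 0.181 FPKM), not members, were also highest in replicate 1.

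Spread among the libraries had a part common to most genes. The median CV of the 6270 members was 13.8% as deposited and 6.62% after scaling. Over replicates 1 and 3 alone the median CV was 8.25% without scaling. Members with a CV above 20% numbered 913 as deposited and 352 after scaling, and those above 50% numbered 57 and 54. Across the members, which are not independent replicates, Pearson's r of log2(FPKM + 1) was 0.981 for replicates 1 and 2, 0.993 for 1 and 3 and 0.987 for 2 and 3.

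**Figure D5:**
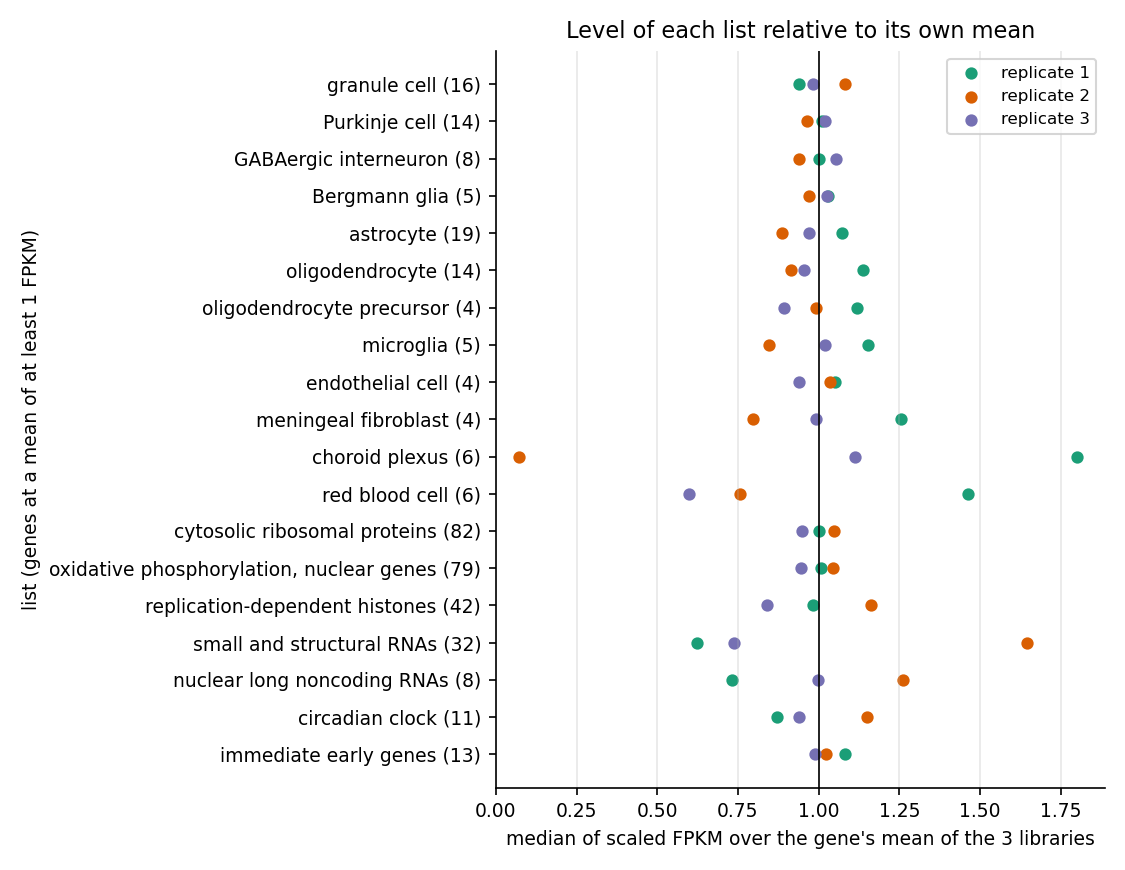
For each list, the median over its members of the scaled FPKM divided by the gene's own mean over the 3 wild-type libraries (horizontal axis, 1 is the gene's mean), in each library (coloured points). Choroid plexus stands at 1.7997, 0.0726 and 1.11 in replicates 1, 2 and 3, small and structural RNAs at 0.623, 1.65 and 0.738, and cytosolic ribosomal protein genes at 1.002, 1.05 and 0.948.

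After scaling, the lists ran from steady to variable. The median CV was 3.62% for the calmodulin genes, 4.35% for 14-3-3 proteins, which bind phosphorylated partners, 4.62% for translation factors, 4.94% for synaptic vesicle release and 5.44% for Purkinje cell genes. It was 8.97% for granule cell genes, of which 13 of 16 members were highest in replicate 2 on this scale and 0 as deposited, where 10 were highest in replicate 1. Other lists of glia lay above Bergmann glia (6.27%), at 13.1% for astrocytes, 12.6% for oligodendrocytes and 16.4% for microglia. All 5 microglia members and all 14 heat shock chaperones were highest in replicate 1. At the top were red blood cell genes at 44.9%, the sole ependyma member, Foxj1, at 48.1%, small and structural RNAs at 57.1%, with 28 of 32 members highest in replicate 2, and choroid plexus genes at 87.3%. The part of the small RNA share in these differences was not tested. Beside these counts, 2121, 2623 and 1526 of all 6270 members were highest in replicates 1, 2 and 3 after scaling. As deposited, 82.4% of all members were highest in replicate 1 and 3.83% in replicate 2.

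Genes of neuronal activity divided. Fos, the immediate early transcription factor, stood at 21.9, 4.89 and 24.1 FPKM, Nr4a1 at 3.51, 1.29 and 3.38, Nr4a2 at 2.49, 0.481 and 2.73 and Npas4, which responds to calcium entry, at 1.94, 0.371 and 1.61 FPKM. In these 4 genes replicate 2 was well below replicates 1 and 3, which lay close together. Jun stood at 10.7, 11.7 and 10.5 FPKM, Egr1 at 3.56, 3.29 and 3.97 FPKM and Arc, a protein of the postsynaptic cytoskeleton, at 6.82, 5.04 and 5.07 FPKM, without such a low value in replicate 2. The genes named here were chosen after their values were seen. Of the 13 members of the immediate early list, 9, 1 and 3 were highest in replicates 1, 2 and 3 as deposited. After scaling 5, 4 and 4 were highest, and 3, 6 and 4 lowest. Among all 6270 members, 5169, 240 and 861 were highest as deposited. With scaling, 2121, 2623 and 1526 of all members were highest, and 1990, 1972 and 2308 lowest. The list's highest places after scaling were thus spread about as those of all members. The 13 had a median CV of 13.5% on that scale.

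Of 11 clock gene members, 2, 5 and 4 were highest in replicates 1, 2 and 3 as deposited, and 0, 8 and 3 after scaling. Among all 6270 members these counts were 5169, 240 and 861 as deposited, and 2121, 2623 and 1526 after scaling. Replicate 2 was thus the highest library more often for clock genes than for all members on both scales. This difference was not tested. Dbp, Nr1d1 and Ciart, the last chosen after its values were seen, were highest in replicate 2 on both scales. Dbp, a factor driven by the clock, stood at 8.72, 13.6 and 7.95 FPKM, Nr1d1 (Rev-erb alpha), which represses Arntl, at 5.23, 8.203 and 6.21 FPKM and Ciart, a circadian repressor, at 1.48, 2.61 and 1.48 FPKM. Arntl itself, not a member, was lowest in replicate 2, at 0.664, 0.333 and 0.596 FPKM. The labels used here give no time of day.

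Among members at 5 FPKM or more outside the small RNAs, the 15 highest CVs included the choroid plexus genes Ttr (96.6%) and Enpp2 (83.3%), the globin genes Hba-a2, Hba-a1, Hbb-bs and Hbb-b1 (68.5% down to 54.3%), Fos (61.9%), Eomes (58.5%) and Trf (48.4%). Mrps12, a mitochondrial ribosomal protein gene, stood at 5.69, 4.15 and 12.1 FPKM, at least 2.0 times above both others in replicate 3. Gfap, the intermediate filament of astrocytes, stood at 17.9, 7.82 and 10.5 FPKM, and Nnat, an imprinted gene, at 41.3, 17.4 and 26.4 FPKM, both highest in replicate 1 and lowest in replicate 2. The pseudogene Olfr856-ps1 (8.84, 28.3 and 17.3 FPKM), the zinc finger gene Zfp488 (3.04, 9.24 and 5.53 FPKM) and A130077B15Rik (6.38, 16.3 and 9.88 FPKM) had the opposite order.

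Of genes at 5 FPKM or more that stood at least 2.0 times above both others in replicate 2, the highest were small RNAs: Rprl3 (54.7, 187 and 62.7 FPKM), Rnu12, Rnu11, Snora81 and Scarna6. Rnu11 and Rnu12 recognise minor introns together. Without replicate 2, the mean of Rprl3 went from 101 to 58.7 FPKM, that of Rnu12 from 88.4 to 48.7 FPKM and that of Rn45s from 48.2 to 29.6 FPKM. Over all members, 6, 12 and 3 genes stood that far above both others in replicates 1, 2 and 3, and 8, 31 and 4 that far below. After scaling the counts were 3, 24 and 3 above and 13, 17 and 5 below, so replicate 2 went from more low than high genes to more high than low.

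The 10 lowest CVs at 5 FPKM or more were those of BC029214 (0.725%), Cnr1, Bckdk, Grin2c, Ewsr1, Glce, Nrbp2, H1f0, Imp3 and Fam131b (2.502%). Cnr1, the cannabinoid receptor of parallel fibre terminals, stood at 22.7, 22.2 and 22.7 FPKM. After scaling the CVs of these 10 genes lay between 10.9% and 15.4%, so they were not the steadiest on that scale. Atp5b had a CV of 1.898% after scaling, against 14.5% as deposited.

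For the genes the series is about, Reln, which granule cells secrete, stood at 0.834, 0.771 and 0.9401 FPKM in wild type, its receptor Vldlr at 4.68, 3.34 and 4.36, the receptor Lrp8 at 1.01, 0.948 and 1.15 and the adaptor Dab1, which both receptors recruit, at 0.252, 0.172 and 0.252 FPKM. Reln and Dab1 were below the limit of 1 FPKM as deposited. Their exon-scaled levels were 33.4 ± 3.37 and 43.8 ± 8.98, beside 18.5 ± 3.15 for Vldlr and 22.7 ± 2.27 for Lrp8. The exon-scaled level is too high for long genes where intronic reads counted, and the deposited FPKM had another order. The order of these genes is therefore not settled. P4hb, protein disulfide isomerase, stood at 10.5, 7.49 and 7.97 FPKM. As a check of the labelled sex, the Y-linked gene Ddx3y stood at 3.63, 2.699 and 3.14 FPKM and Xist, the RNA of the inactive X chromosome, at no more than 0.00306 FPKM.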

How the data were processed

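3 total RNA libraries of wild-type cerebellum were made with a stranded kit and sequenced as single-end reads, per the labels' protocols. The authors filtered mitochondrial and ribosomal sequences, trimmed 2 bases, aligned to mm10 with TopHat2 and Bowtie 1 and computed FPKM with Cufflinks, per the labels, which also name Cuffdiff 2.1.1, whose tests were not used; the sources used here give no Cufflinks version. The deposited FPKM of 24537 genes were used without a count model. Gene spans and exons came from GENCODE M21, which gave 24145 genes (98.4%) a position. The depth and length step was tested on simulated data. Shares, CVs and median-of-ratios size factors were computed with Python 3.11.15, numpy 2.4.6 and pandas 2.3.3. No test was made, since there is 1 group.

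Gene lists covered 26 cell types and 39 families. The members and lists were chosen with earlier results of these data known. Named genes were the 25 highest outside small RNAs and 8 within, the 4 highest of each cell type list and 3 of each family (8 for transcription factors), list members under 0.1 FPKM, extremes of CV at 5 FPKM or more, genes at least 2.0 times above or below both other libraries, and Reln, Vldlr, Lrp8, Dab1 and P4hb. Others, such as receptor subunits, activity and clock genes, were chosen after their values were seen. Alternatives covered scaling, small RNAs, short genes, duplicates, pseudocounts of 1 and 0.1 and each replicate left out. Some genes that this rule names are not reported here.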

Additional observations from a re-analysis of the deposited data

How the results depend on the processing

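No paired analysis was possible because there is 1 group. The number of members, 6270, became 13181 with each library rescaled to one sum in the way of TPM, 18764 with no minimum above 0 and 11854 on the exon-scaled level, an alternative chosen after seeing the data, as was FPKM times span (approximate reads). The number of genes holding 50% of the sum (289.7) became 450.3 without small RNAs, 890.7 exon-scaled and 1190 by reads. The share of the 100 highest (36.3%) became 27.3%, 19.8% and 14.95%. The median CV (13.8%) became 6.62% with size factors. It also became 6.62% with small RNAs left out and the rest of each library rescaled to a common sum. That setting does not separate leaving out the small RNAs from the rescaling. As an SD the spread was 0.145 for log2(FPKM + 1) and 0.193 for log2(FPKM + 0.1). Leaving out each replicate in turn gave a median CV of 8.25% (without replicate 2) to 18.0%. The granule cell share (1.22%) became 1.42% without small RNAs, 1.29% without 1361 genes under 300 bases and 0.846% exon-scaled. The choroid plexus share (0.270%) became 0.542% exon-scaled, and 0.158% to 0.402% with a replicate left out. The ribosomal protein share (5.51%) became 6.43% without small RNAs, 5.87% without short genes, 4.50% exon-scaled and 1.33% by reads. The small RNA share (14.1%) became 3.50% exon-scaled and 0.372% by reads, and 10.4% to 16.1% with a replicate left out. The exon-scaled level moved 15 of 26 cell type shares and 38 of 39 family shares by more than the SD of the libraries. Size factors could move none, since the factor of a library cancels in its shares. FPKM times exon length was planned but not run, since the values are per span. Where an alternative changes the unit or the genes counted, the change follows from its construction; for replicates left out the cause was not tested. Depth limits genes near 0: their values rest on few reads.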
